A study of Mus musculus with 6 samples.

Results

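The 10 genes described here belong to the NRF2 antioxidant response: the regulators *Nfe2l2*, *Keap1* and *Sqstm1*, and the enzymes *Gclc*, *Gclm*, *Gsr*, *Txnrd1*, *Srxn1*, *Prdx1* and *Nqo1*. They are named by symbol as known members of the response, a choice made with earlier results of these data known, and each is represented by the transcript row that collected the most reads in the 6 libraries together. All 10 of the 10 symbols were found among the 24445 genes of the read-count table, and all 10 passed the filter on low counts that left 12023 genes for testing. In IL-4-treated macrophages lacking Acly, transcripts of all 7 enzymes and of *Sqstm1* were higher than in control macrophages, by 1.24-fold for *Gsr* to 2.32-fold for *Nqo1*. Transcripts of *Nfe2l2*, which encodes NRF2, and of *Keap1* differed by less than the spread between libraries. Of 119 further NRF2-linked genes tested, 39 were called higher (adjusted p under 0.05) and 10 lower, beside 12.4% and 12.6% of all genes. The known targets *Hmox1* and *Slc7a11* were not called, and *Osgin1* was called lower.

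The study asked how loss of ATP-citrate lyase (Acly), the enzyme that makes cytosolic acetyl-CoA from citrate, changes macrophages. Bone marrow-derived macrophages (BMDMs) were grown for 7 days in L929-conditioned medium and then received interleukin-4 (IL-4), a cytokine of alternative activation, at 100 U/mL over 24 h. The AclyM-KO group (3 libraries) came from female C57Bl/6J mice carrying *Acly* alleles with loxP sites around an exon (fl/fl) together with Cre recombinase under *Lyz2*, a gene of the myeloid lineage. The Ctrl group (3 libraries) came from female Acly fl/fl littermates and received IL-4 as well, so all 6 libraries share the floxed alleles and the cytokine. Effects of Cre itself and of Acly loss cannot be told apart in this design, and since no library without IL-4 was analysed here, a response to IL-4 cannot be told apart from a difference that precedes it. The age of the donor mice is not given in the sources used here. The study describes the libraries both as biological replicates and as technical replicates of pooled mice, so p-values measure only the spread between these libraries, which may be technical.

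NRF2 is a transcription factor that pairs with small MAF proteins and binds the antioxidant response element in the promoters of genes for glutathione, thioredoxin and detoxification enzymes. In resting cells KEAP1 holds NRF2 for ubiquitination by a CUL3 ligase and degradation. Electrophiles and peroxides modify KEAP1, and the autophagy receptor p62, the product of *Sqstm1*, can sequester it, so NRF2 activity is set largely at the level of protein. In macrophages the response limits oxidative damage and is linked to the tone of inflammatory genes.

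The deletion was visible in the target gene. *Acly* (GRCm38, chr11:100476353-100528000, - strand) was read at 332, 321 and 350 counts per 1000000 (CPM, with library sizes scaled by the trimmed mean of M-values) in Ctrl and at 146, 134 and 135.5 CPM in AclyM-KO. The groups did not overlap, and *Acly* fell by 1.27 on the log2 scale (SE 0.0533, edgeR quasi-likelihood test, adjusted p = 5.22e-10). Counts cover the whole transcript and not the floxed exon alone, so the remaining reads do not measure how many cells kept the gene.

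All 10 macrophage markers examined passed the filter, led by *Lyz2*, which encodes lysozyme. Their summed level was 20220, 19360 and 19260 CPM in Ctrl and 16830, 16600 and 16890 CPM in AclyM-KO, with *Adgre1* called higher and 5 of the 10 markers called lower (*Lyz2*, *Mertk*, *Itgam*, *Csf1r* and *Spi1*). Beside these counts and those of the marker lists below, 12.4% of all genes tested were called higher and 12.6% lower. Most of the difference in the sum was *Lyz2*, the gene that drives Cre in AclyM-KO, at 6595 ± 515 CPM in Ctrl and 4142 ± 120 CPM in AclyM-KO, and the other 9 markers summed to 13100, 13270 and 12690 CPM in Ctrl and 12820, 12380 and 12690 CPM in AclyM-KO, with overlapping groups. Of 10 neutrophil markers 4 passed the filter and 2 of them were called higher, *S100a8* (log2 fold change 0.85, adjusted p = 0.00257) and *S100a9* (0.59, adjusted p = 0.0152, or 0.0728 without Ctrl replicate 3). The neutrophil list summed to only 18.0, 19.6 and 17.3 CPM in Ctrl and 27.2, 26.1 and 25.1 CPM in AclyM-KO, with *S100a9* its most abundant gene, and its defining gene *Ly6g* had 1 count in 1 library and 0 in the other 5. Among 10 erythroid and mast cell markers 7 had 0 counts in every library, and the 1 gene tested, *Kit*, was called higher at 3.19 ± 0.829 CPM in Ctrl and 7.61 ± 0.618 CPM in AclyM-KO (SD, n = 3). That list summed to 3.31, 4.66 and 5.01 CPM in Ctrl and 9.62, 8.75 and 8.09 CPM in AclyM-KO.

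The remaining marker lists were sparse as well. Dendritic cell markers summed to 33.0, 28.1 and 29.7 CPM in Ctrl and 20.1, 24.6 and 22.8 CPM in AclyM-KO, with 3 of 9 tested, *Batf3* the most abundant and the 1 called lower (log2 -0.57, edgeR adjusted p = 0.00626). Lymphocyte markers (9 of 10 matched, 1 tested, *Cd79b*, called lower with adjusted p = 0.0138, or 0.0509 to 0.0534 without Ctrl replicate 3, AclyM-KO replicate 1 or AclyM-KO replicate 3 and 0.0591 with DESeq2) summed to 3.78, 2.62 and 3.19 CPM in Ctrl and 1.84, 2.19 and 1.92 CPM in AclyM-KO, with *Ncr1* at 0 in every library. Of 8 fibroblast markers none reached testing, their sums lay between 0.380 and 2.06 CPM, and *Lum* was at 0 throughout. These shifts move with genotype, as the NRF2 genes do, and their part in the results below was not tested. In bulk RNA, fewer cells of a type and less RNA per cell cannot be told apart.

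The promoter sequences show where the letters of the element occur. The core TGACNNNGC was searched on both strands in RefSeq promoter windows (GRCm38.p6) reaching from 250 bases before to 50 bases after a transcription start. It was found in 4071 of 32851 windows (12.4%) and in 17.3% of the 9631 tested genes that have a window. Of the 10 genes, 8 had a window, *Gclc* and *Gsr* not among them, and 5 of the 8 held a match: *Gclm*, *Nfe2l2*, *Prdx1*, *Srxn1* and *Txnrd1*. The stretches around the 4 matches that lie before the start are given here, read on the strand of the gene, with the match in capitals. They are shown because NRF2 binds this element, and whether it binds at these matches was not tested.
Prdx1 (chr4:116685446-116685494, + strand): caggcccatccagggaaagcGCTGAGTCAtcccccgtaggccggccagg
Gclm (chr3:122245403-122245451, + strand): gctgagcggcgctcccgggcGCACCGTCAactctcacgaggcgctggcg
Txnrd1 (chr10:82859094-82859142, + strand): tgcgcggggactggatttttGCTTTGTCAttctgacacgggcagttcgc
Nfe2l2 (chr2:75704875-75704913, - strand): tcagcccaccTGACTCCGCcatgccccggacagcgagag

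The *Prdx1*, *Gclm* and *Txnrd1* matches are in the reverse orientation, 133 to 125, 134 to 126 and 92 to 84 bases before the start that RefSeq gives for the window, and *Nfe2l2* holds its match in the forward orientation, 240 to 232 bases before its RefSeq start. The *Txnrd1* match is in 1 of that gene's 3 windows and lies before an internal start, whereas the window of the transcript whose counts are given below, which begins upstream at base 82833951, held no match. *Srxn1* holds GCTAGGTCA at bases 29 to 37 from its RefSeq start. The GENCODE gene positions given below begin elsewhere for some of these genes: counted from them, the *Prdx1* match lies 78 to 70 and the *Nfe2l2* match 262 to 254 bases before the gene, the *Srxn1* match covers bases 37 to 45, and the *Gclm* distances are the same. Only the *Prdx1* match reads TGACTCAGC on the opposite strand, a form that also contains the AP-1 site TGACTCA and that occurred in 149 of all windows (0.454%). The shorter TGACTCA was found in 5.2% of windows, and among the members in those of *Prdx1* and *Srxn1*. *Keap1*, *Nqo1* and *Sqstm1* had no match in their windows, which says only that these letters are not within these windows.

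Across the genome, 1485 of 12023 tested genes were called higher in AclyM-KO (12.4%) and 1511 lower (12.6%) at an adjusted p under 0.05. In either direction 24.9% were called. Without AclyM-KO replicate 2 the counts were 1002 higher and 972 lower. Of the 10 NRF2 genes 8 were called higher and 0 lower, and *Nfe2l2* and *Keap1* were not called, also at an unadjusted p under 0.05. With the further limit of a log2 fold change beyond 0.58 used by the study, 4 of the 10 were called (*Nqo1*, *Gclc*, *Prdx1* and *Srxn1*), against 358 of 12023 genes (2.98%) called higher, 2.57% called lower and 5.55% in either direction. *Srxn1* was inside that limit without Ctrl replicate 2 (log2 fold change 0.55). The median log2 fold change of the 10 was 0.48, that of all genes tested was 0.0014, and 5.78% of genes tested had a value above the median of the 10.

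**Figure D1:**
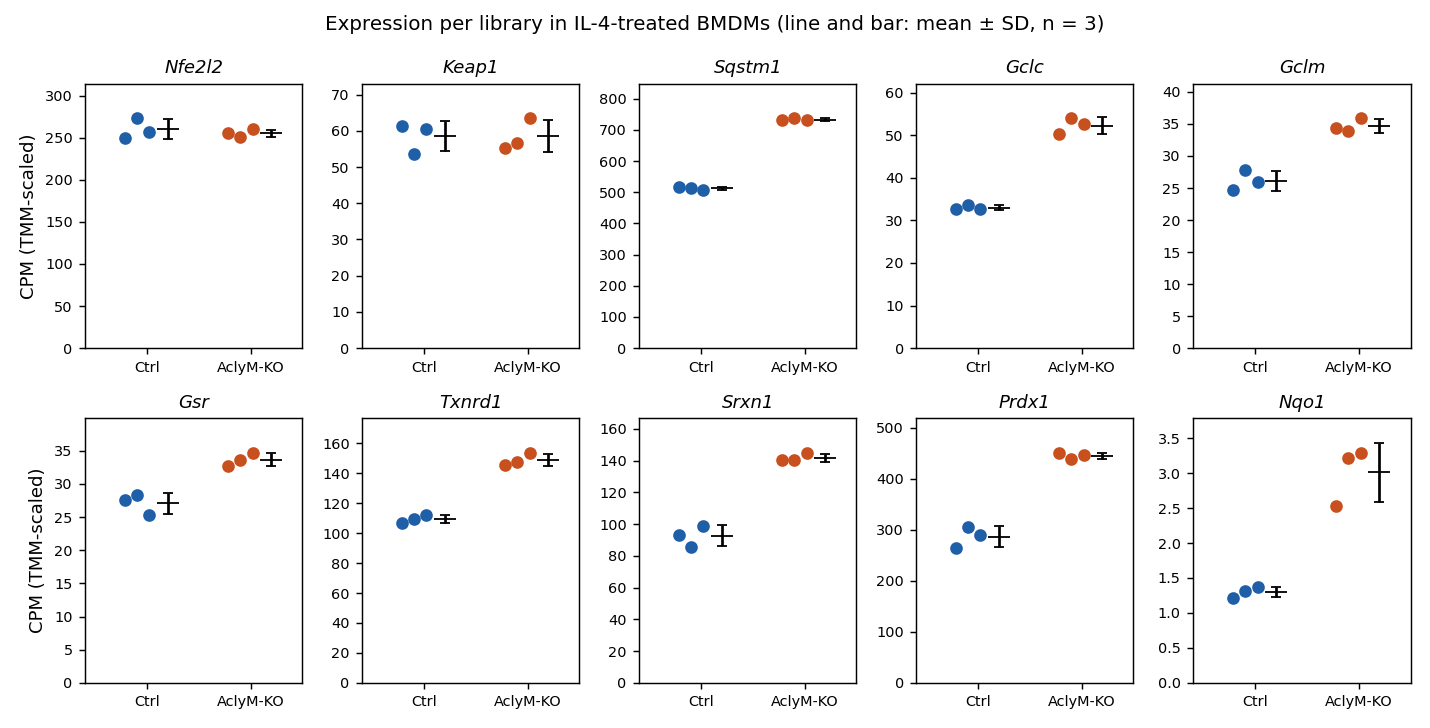
Each panel plots the CPM of a gene (vertical axis, starting at 0) in the 3 Ctrl (blue) and 3 AclyM-KO (orange) libraries, with the mean ± SD as a black line and bar. In 8 panels every AclyM-KO point lies above every Ctrl point, while the points of *Nfe2l2* and *Keap1* overlap.

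Of the 3 regulators, *Sqstm1* was called higher and the others were not called. *Nfe2l2* (GRCm38, chr2:75675513-75704641, - strand, transcript of 5 exons) stood at 250, 273 and 257 CPM in Ctrl and at 255, 251 and 260 CPM in AclyM-KO. The groups overlapped, with Ctrl replicate 2 the highest of all 6 libraries. The log2 fold change was -0.03 (95% confidence interval -0.13 to 0.08, edgeR adjusted p = 0.753), an interval that leaves out changes as large as those of the 8 other genes. A second, non-coding *Nfe2l2* transcript row held 56, 59 and 59 counts in Ctrl and 61, 84 and 78 counts in AclyM-KO.

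*Keap1* (chr9:21229730-21239361, - strand, 6 exons), the adaptor that presents NRF2 to the ubiquitin ligase, was read at 61.2, 53.7 and 60.6 CPM in Ctrl and 55.3, 56.8 and 63.5 CPM in AclyM-KO. The ranges overlapped almost fully, the means were equal at 58.5 CPM (SD 4.16 and 4.41, n = 3 each), and the log2 fold change lay between -0.15 and 0.14 (95% confidence interval, edgeR adjusted p = 0.981). Exons of a gene on the other strand cover 16.1% of the *Keap1* transcript, and since counting did not separate strands a share of these reads may belong to that gene. The ratio of *Nfe2l2* to *Keap1*, formed within each library from CPM per kilobase of transcript, was 5.73 ± 0.694 in Ctrl and 5.62 ± 0.344 in AclyM-KO.

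*Sqstm1* (chr11:50199366-50210827, - strand, 8 exons) was the regulator with a call. Its product p62 carries ubiquitinated cargo into autophagosomes, binds KEAP1, and is itself a known NRF2 target. The gene was read at 516, 513 and 508 CPM in Ctrl and at 731, 738 and 731.5 CPM in AclyM-KO. The gap between the groups was many times the spread within either, and *Sqstm1* had the smallest p of the 10 genes, at place 44 of the 12023 tested. Its fold change was 1.43 (log2 0.52, 95% confidence interval 0.43 to 0.60, edgeR adjusted p = 2.75e-07).

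Glutamate-cysteine ligase catalyses the first and limiting step of glutathione synthesis. *Gclc* (chr9:77754535-77794485, + strand, 16 exons) encodes its catalytic subunit and was read at 32.7, 33.7 and 32.7 CPM in Ctrl and at 50.2, 54.0 and 52.6 CPM in AclyM-KO. The 3 Ctrl libraries lay close together, and all AclyM-KO libraries lay far above them, at 1.58-fold (log2 0.66, 95% confidence interval 0.53 to 0.79, edgeR adjusted p = 1.66e-06). *Gclm* (chr3:122245557-122270732, + strand, 7 exons), the modifier subunit that raises the activity of the enzyme, was read at 24.7, 27.8 and 25.9 CPM in Ctrl and 34.3, 33.8 and 35.9 CPM in AclyM-KO. It rose by 1.33-fold (log2 0.41, 95% confidence interval 0.26 to 0.57, edgeR adjusted p = 0.000775), again without overlap.

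The balance of the subunit transcripts was compared within libraries. The ratio of *Gclc* to *Gclm* per kilobase of transcript was 2.17, 1.98 and 2.06 in Ctrl and 2.39, 2.61 and 2.39 in AclyM-KO. The groups did not overlap, but an exact two-sided permutation test over 3 against 3 libraries cannot go below p = 0.10, and this value, 0.10, became 0.4 after adjustment over the 4 ratios compared. *Gsr* (chr8:33652523-33698163, + strand, 13 exons), glutathione reductase, which restores oxidised glutathione with NADPH, was read at 27.6, 28.4 and 25.3 CPM in Ctrl and 32.7, 33.7 and 34.7 CPM in AclyM-KO. It showed the smallest rise of the 8 genes, 1.24-fold (log2 0.31, 95% confidence interval 0.16 to 0.47, edgeR adjusted p = 0.00536), and the groups were still apart.

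The thioredoxin system reduces protein disulfides and peroxiredoxins. *Txnrd1* (chr10:82833951-82897712, + strand, 15 exons), cytosolic thioredoxin reductase, was read at 107, 109 and 112 CPM in Ctrl and 145, 148 and 154 CPM in AclyM-KO. The libraries of each group lay close together, and the level was 1.36-fold higher (log2 0.44, 95% confidence interval 0.34 to 0.55, edgeR adjusted p = 9.64e-06). Its 4 transcript rows shared nearly all reads, so they are not separate evidence. *Prdx1* (chr4:116685544-116700822, + strand, 6 exons), an abundant peroxiredoxin that removes hydrogen peroxide, was read at 264, 305 and 289 CPM in Ctrl and 450.5, 439 and 445 CPM in AclyM-KO. Here the Ctrl libraries varied more than the AclyM-KO libraries (SD 20.7 and 5.69 CPM), yet the highest Ctrl value was far below the lowest AclyM-KO value, and the rise was 1.56-fold (log2 0.64, 95% confidence interval 0.53 to 0.75, edgeR adjusted p = 5.92e-07).

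*Srxn1* (chr2:152105516-152111376, + strand, 2 exons) encodes sulfiredoxin, which repairs peroxiredoxins that have been over-oxidised. It was read at 93.4, 85.8 and 99.1 CPM in Ctrl and 140.1, 140.4 and 145 CPM in AclyM-KO. All AclyM-KO libraries were above all Ctrl libraries, by 1.53-fold on average (log2 0.61, 95% confidence interval 0.49 to 0.73, edgeR adjusted p = 1.51e-06). The ratio of the repair enzyme to its substrate, *Srxn1* to *Prdx1* per kilobase, was 0.266 ± 0.0320 in Ctrl and 0.260 ± 0.00596 in AclyM-KO with overlapping groups (exact permutation p = 0.9). The ratio of *Txnrd1* to *Gsr*, the reductases of the thioredoxin and glutathione systems, was 2.99 ± 0.242 in Ctrl and 3.26 ± 0.0224 in AclyM-KO and overlapped (exact permutation p = 0.3).

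*Nqo1* (chr8:107388225-107403206, - strand, 6 exons), a quinone reductase often used as an indicator of NRF2 activity, had the largest fold change of the 10 and the fewest reads. It received 18, 16 and 18 counts in Ctrl and 37, 50 and 48 counts in AclyM-KO, that is 1.22, 1.31 and 1.37 CPM against 2.52, 3.22 and 3.29 CPM. The groups did not overlap. The fold change of 2.32 (log2 1.21, edgeR adjusted p = 0.00237) came with the widest interval of the family, 0.68 to 1.75 on the log2 scale, so its order above the other genes is less firm than its direction. For each of the 8 raised genes an exact two-sided permutation test on CPM gave p = 0.10, the smallest that 3 against 3 libraries allow. Separation of this kind with AclyM-KO higher was also seen for 20.5% of all genes tested, and separation in either direction for 40.2%.

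**Figure D2:**
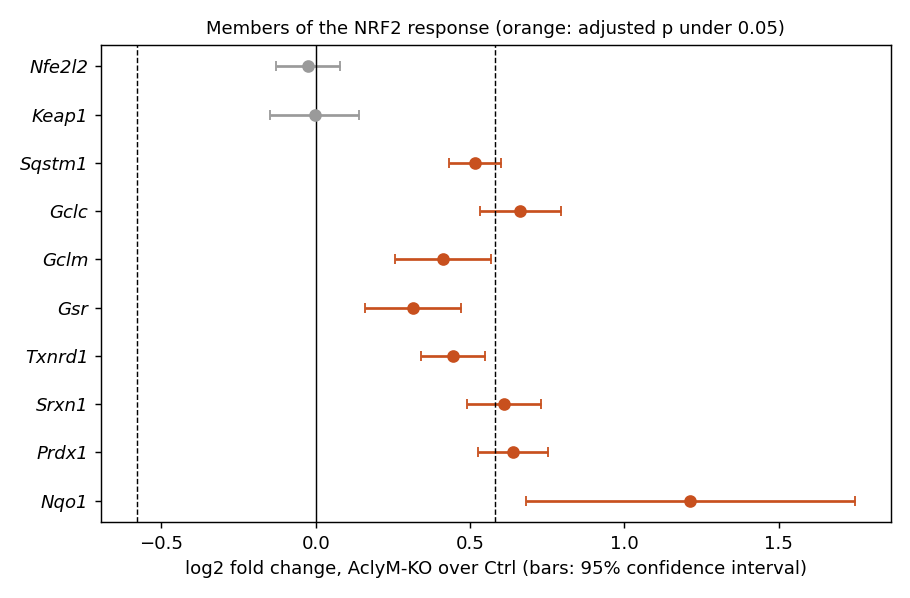
The log2 fold change of AclyM-KO over Ctrl (horizontal axis) is drawn for each gene as a point with its 95% confidence interval, orange where the adjusted p was under 0.05 and grey where it was not. Dashed lines mark a log2 fold change of 0.58 in either direction, and the intervals of *Nfe2l2* and *Keap1* include 0 while that of *Nqo1* is the widest.

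Levels of different genes were set side by side per kilobase of transcript. In Ctrl the order ran from *Sqstm1* (251.5 ± 1.98 CPM per kilobase) over *Prdx1* (125 ± 9.03) and *Nfe2l2* (105 ± 4.89) to *Srxn1* (33.0 ± 2.38) and *Txnrd1* (30.2 ± 0.692), whose ranges overlapped. *Keap1* followed at 18.5 ± 1.31 CPM per kilobase, then *Gsr* (10.1 ± 0.603) and *Gclc* (9.65 ± 0.167), which overlapped as well, then *Gclm* (4.67 ± 0.284), with *Nqo1* last at 0.835 ± 0.0487. In AclyM-KO no neighbours in the order overlapped, and the only exchange of places was between *Gclc* (15.3 ± 0.566 CPM per kilobase) and *Gsr* (12.6 ± 0.374). *Sqstm1* reached 360 ± 1.87 and *Prdx1* 194 ± 2.48 CPM per kilobase, while *Nqo1*, at 1.94 ± 0.272, stayed the lowest of the 10 (all SD, n = 3).

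**Figure D3:**
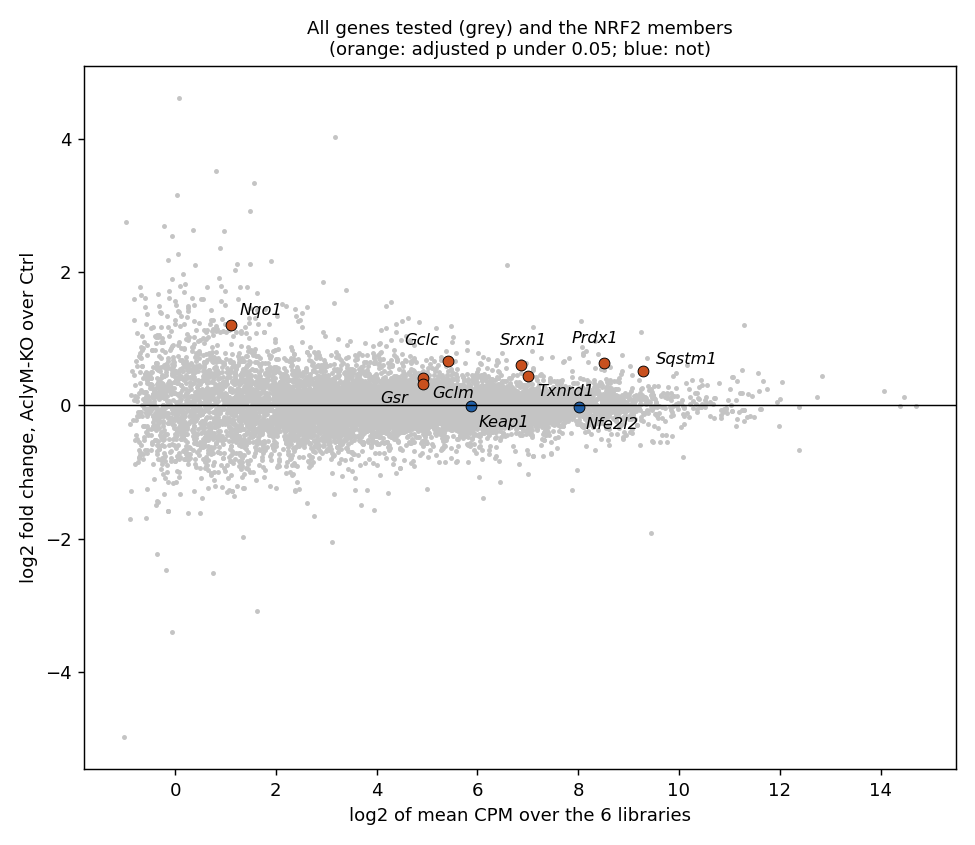
The log2 fold change (vertical axis) is plotted against the log2 of the mean CPM over the 6 libraries (horizontal axis) for all 12023 genes tested (grey) and the 10 NRF2 genes (orange where the adjusted p was under 0.05, blue where it was not). The raised genes span levels from *Nqo1* at the low end to *Sqstm1* near the high end, and the 5th and 95th percentiles of all genes are -0.505 and 0.52.

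The wider pathway was described over lists of its other genes. The 7 lists of further NRF2-linked genes hold 136 genes, of which 119 were tested. Called higher were 39 of them (32.8%, beside 12.4% of all genes tested) and called lower 10 (8.40%, beside 12.6%), and no test of the lists was made. Their median log2 fold change was 0.12, and 5 genes passed the limit of 0.58 upward and 2 downward. Of the 49 called genes, 33 were called in every alternative analysis. Genes called higher also lost their calls: *Gsto1* and *Rbx1* in 8 alternatives, *Sesn3* and *Txn2* in 7, *Mafk* in 6, and *Abcb6* and *Nfe2* in 4. Further lost calls are given with the lists. Only 5 genes were called lower without AclyM-KO replicate 1, and 6 without Ctrl replicate 1 or with DESeq2. For the counts of each list below, the shares to set beside them are the same 12.4% and 12.6% of all genes tested.

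Among 15 genes that control NRF2, 8 were called higher and 1 lower (median log2 fold change 0.21). *Bach1*, a repressor that competes with NRF2 for the element, was read at 188, 162 and 182 CPM in Ctrl and 223.5, 225.5 and 243 CPM in AclyM-KO, a log2 rise of 0.38 (edgeR adjusted p = 0.000244). *Mafg*, a small MAF that serves as partner to either factor, rose from 34.2 ± 2.62 to 44.6 ± 1.95 CPM (log2 0.38, edgeR adjusted p = 0.00113). *Dpp3*, whose product binds KEAP1, rose by 0.23 on the log2 scale (edgeR adjusted p = 0.00319). A partner and a competitor of NRF2 were thus both higher. *Cul3*, the scaffold of the ligase, was at 129 ± 2.32 CPM in Ctrl and 128 ± 4.33 CPM in AclyM-KO (edgeR adjusted p = 0.902). *Rbx1*, another subunit of that ligase, was called higher (log2 0.20, edgeR adjusted p = 0.0422), a call lost in 8 alternatives. The gene called lower was *Maff* (log2 -0.56, edgeR adjusted p = 0.0385), a call lost with DESeq2 and when any 1 library other than Ctrl replicate 3 and AclyM-KO replicate 2 was left out (adjusted p = 0.065 to 0.13).

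Of 40 other glutathione genes 30 were tested, 7 were called higher and 2 lower, and the median log2 fold change was 0.08. *Slc3a2*, the heavy chain shared by amino acid exchangers including the cystine importer, rose from 320 ± 9.83 to 477 ± 11.7 CPM (log2 0.57, edgeR adjusted p = 3.44e-07). Its light chain *Slc7a11*, which confers cystine transport and is a known NRF2 target, was read at 20.4, 30.6 and 26.6 CPM in Ctrl and 28.04, 29.3 and 26.9 CPM in AclyM-KO. Those ranges overlapped, Ctrl replicate 1 was low, and the log2 fold change was 0.13 (edgeR adjusted p = 0.44), or -0.03 without that library. *Esd*, which completes the glutathione-dependent removal of formaldehyde, rose by 0.42, and *Gpx1*, the main cytosolic glutathione peroxidase, by 0.27 on the log2 scale (edgeR adjusted p = 9.61e-06 and 0.000621). *Gstm5*, a glutathione S-transferase of low level, fell from 64, 47 and 46 counts to 29, 28 and 30 counts (log2 -1.001, edgeR adjusted p = 0.00272). The other gene called lower, the secreted peroxidase *Gpx3* (log2 -0.47, edgeR adjusted p = 0.0197), was not called without Ctrl replicate 1 (adjusted p = 0.0836), AclyM-KO replicate 1 (0.0795) or AclyM-KO replicate 2 (0.0573), nor with DESeq2.

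Of 19 other genes of the thioredoxin and peroxiredoxin system 6 were called higher and 2 lower (median 0.11). *Txn1*, thioredoxin itself and the substrate of *Txnrd1*, rose from 111 ± 7.90 to 145 ± 6.71 CPM (log2 0.39, edgeR adjusted p = 0.000185). *Msra*, which repairs oxidised methionine, had the largest rise of the list, from 19.4, 19.3 and 16.3 CPM in Ctrl to 26.8, 26.9 and 29.7 CPM in AclyM-KO (log2 0.60, edgeR adjusted p = 0.000163). The sestrin gene *Sesn2* rose by 0.39 (log2, edgeR adjusted p = 0.00225), whereas *Prdx5*, a peroxiredoxin of mitochondria and peroxisomes, fell by 0.31 (edgeR adjusted p = 0.00225), opposite in direction to *Prdx1*. The other gene called lower, *Nxn* (log2 -0.56, edgeR adjusted p = 0.0403), encodes nucleoredoxin, and its call was lost with DESeq2 and when any 1 library other than AclyM-KO replicate 2 was left out (adjusted p = 0.0516 to 0.161). *Txnip*, an inhibitor of thioredoxin, was 0.15 higher (edgeR adjusted p = 0.0157), a call lost without Ctrl replicate 3 (adjusted p = 0.0546), AclyM-KO replicate 2 (0.0762) or AclyM-KO replicate 3 (0.0605).

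Of 31 genes for quinone, aldehyde, haem and iron handling 26 were tested, 8 were called higher and 2 lower (median 0.12). The ferritin chains, which store iron, were the most abundant of them and both rose: *Fth1* from 6404, 6233 and 5963 CPM to 8438, 8358 and 8574 CPM (log2 0.45, edgeR adjusted p = 5.79e-08) and *Ftl1* from 1831 ± 54.1 to 2471 ± 59.6 CPM (log2 0.43, edgeR adjusted p = 4.94e-07). Ferritin genes have many processed pseudogenes, among which reads could be split. *Hmox1*, haem oxygenase and a classical NRF2 and BACH1 target, was not called. It was read at 445, 473 and 457 CPM in Ctrl and 452.5, 446 and 427.5 CPM in AclyM-KO, with overlapping groups and a log2 fold change of -0.05 (95% confidence interval -0.15 to 0.04, edgeR adjusted p = 0.436). The aldehyde reductases *Akr7a5* and *Akr1a1* rose by 0.69 and 0.28 on the log2 scale (edgeR adjusted p = 0.000437 and 5.3e-05). The genes called lower were a further aldo-keto reductase, *Akr1b8* (log2 -0.49, edgeR adjusted p = 0.0104), and carbonyl reductase *Cbr1* (log2 -0.24, edgeR adjusted p = 0.0378), whose call was lost with DESeq2, with a replicate block and when any 1 library other than Ctrl replicate 3 was left out (adjusted p = 0.0579 to 0.127).

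Both reductase systems draw on NADPH. Of 6 enzymes of its supply 2 were called higher and 0 lower by the edgeR test, and all 6 fold changes were above 0 (median 0.12). Of all genes tested, 12.4% were called higher, 12.6% were called lower and 50.26% had a log2 fold change above 0. *Pgd*, of the pentose phosphate pathway, rose from 261 ± 2.47 to 327 ± 9.59 CPM (log2 0.32, edgeR adjusted p = 0.000102). *Me1*, malic enzyme, had 33, 29 and 29 counts in Ctrl and 63, 56 and 51 counts in AclyM-KO (log2 0.74, edgeR adjusted p = 0.0154), a call lost without AclyM-KO replicate 1 (adjusted p = 0.0728) and with DESeq2. *G6pdx*, the first enzyme of the pentose phosphate pathway, stood at 198, 195 and 194 CPM in Ctrl and 208, 210.4 and 213 CPM in AclyM-KO. Its groups were apart by a small step (log2 0.11) that did not pass the test over all genes (edgeR adjusted p = 0.107).

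Of 7 enzymes that remove superoxide and peroxide 6 were tested, 3 were called higher and 1 lower (median 0.15). *Sod2*, the mitochondrial superoxide dismutase, was read at 57.2, 45.9 and 55.6 CPM in Ctrl and 73.3, 77.9 and 74.0 CPM in AclyM-KO (log2 0.50, edgeR adjusted p = 0.000103). Its cytosolic counterpart *Sod1* rose by 0.47 and catalase, *Cat*, by 0.26 on the log2 scale (edgeR adjusted p = 0.000215 and 0.00115). The gene called lower was *Pon2*, a paraoxonase (log2 -0.17, edgeR adjusted p = 0.0326), a call lost when any 1 library other than Ctrl replicate 2 and AclyM-KO replicate 3 was left out (adjusted p = 0.0582 to 0.155) and with a replicate block (0.0594).

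Of 18 further genes often listed as NRF2-induced 17 were tested, 5 were called higher and 2 lower (median 0.13). *Trib3*, a pseudokinase also known from the ATF4 stress response, rose from 10.7, 16.7 and 15.4 CPM to 34.9, 37.3 and 33.2 CPM (log2 1.31, edgeR adjusted p = 1.33e-06). *Lrp8*, a lipoprotein receptor, rose from 11.4 ± 1.42 to 21.6 ± 1.08 CPM (log2 0.93, edgeR adjusted p = 1.17e-05), and *Cd36*, a scavenger receptor for oxidised lipoproteins, from 1972 ± 188 to 2556 ± 115 CPM (log2 0.37, edgeR adjusted p = 0.000148). *Osgin1*, a gene induced by oxidative stress, went the other way, from 9.66, 11.3 and 12.9 CPM in Ctrl to 7.44, 6.37 and 8.09 CPM in AclyM-KO (log2 -0.63, edgeR adjusted p = 0.00485). The remaining calls were the nuclear receptor *Rxra*, which was lower (log2 -0.29, edgeR adjusted p = 0.00391), and metallothionein *Mt1* and proteasome subunit *Psma4*, which were higher (log2 0.19 each, edgeR adjusted p = 0.0319 and 0.0369). Those calls for *Mt1* and *Psma4* were each lost without 4 and 3 of the libraries, respectively, AclyM-KO replicates 1 and 2 and Ctrl replicate 3 for both and Ctrl replicate 1 for *Mt1* (adjusted p = 0.065 to 0.204). Both were also lost with library totals alone (adjusted p = 0.0525 and 0.0568), and *Psma4* with DESeq2 (0.0941).

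**Figure D4:**
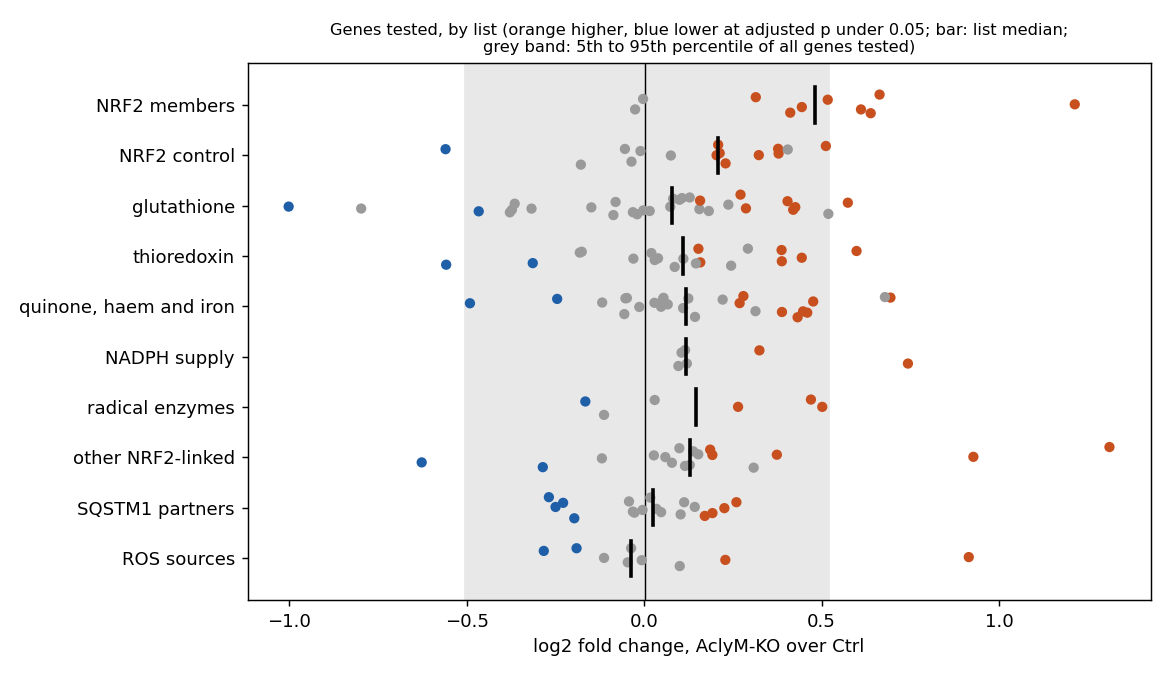
Each point is a tested gene, placed by its log2 fold change of AclyM-KO over Ctrl (horizontal axis) in the row of its list, orange if called higher, blue if called lower and grey if not called, with a bar at the list median. The grey band spans the 5th to the 95th percentile of all genes tested, and the median of the 10 NRF2 genes, 0.48, lies farther right than those of the other lists drawn.

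Autophagy genes around *Sqstm1* were called in both directions. Of 19 receptors and machinery genes 18 were tested, 4 were called higher and 4 lower, with a median log2 fold change of 0.03. Over all genes tested, 12.4% were called higher and 12.6% lower. *Optn*, a receptor like p62, rose by 0.26, and *Becn1*, a component of the initiating lipid kinase complex, by 0.23 on the log2 scale (edgeR adjusted p = 0.00478 and 0.00631). *Tfeb*, a transcription factor for lysosome and autophagy genes, fell by 0.23 (edgeR adjusted p = 0.00766), a call lost without AclyM-KO replicate 1 (adjusted p = 0.0598). *Atg7* (log2 0.19) and *Gabarapl1* (0.17) were the other genes called higher, and *Calcoco1* (-0.25), *Wipi1* (-0.27) and *Nbr1* (-0.20) the other genes called lower. Of these, *Gabarapl1* was not called when any 1 library other than Ctrl replicate 1 was left out, *Calcoco1* and *Nbr1* not without AclyM-KO replicate 2, and *Wipi1* not without AclyM-KO replicate 3 (adjusted p = 0.051 to 0.123).

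Subunit genes of NADPH oxidases, which include a main source of superoxide in macrophages, were called in both directions as well. Of 14 subunit genes 9 were tested, 2 were called higher and 2 lower (median -0.04). The shares over all genes tested were 12.4% higher and 12.6% lower. *Rac1* rose by 0.23 and *Rac2*, its homologue of blood cells, fell by 0.28 on the log2 scale (edgeR adjusted p = 0.00194 and 0.00053). *Cybb* and *Cyba* were not called (log2 -0.11 and -0.04, edgeR adjusted p = 0.0833 and 0.646). *Cybb* was called lower without Ctrl replicate 2 (edgeR adjusted p = 0.00785) and with library totals alone (0.0436). *Noxo1*, an organiser of other NADPH oxidases, had 14, 9 and 13 counts in Ctrl and 21, 33 and 22 counts in AclyM-KO (log2 0.91, edgeR adjusted p = 0.0441). That call was lost in 10 alternatives, among them the removal of any single library, with adjusted p up to 0.188.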

How the data were processed

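Libraries of mRNA were strand-specific. The submitters' processing notes name CASAVA 1.8.2, STAR 2.5.2b and mm10. The deposited values are raw counts for each RefSeq transcript, without normalization by the authors. The counting program is not given in the sources used here, and counting did not separate strands, since *Xist* and *Tsix* each had 7864 counts in Ctrl replicate 1. Symbols came from RefSeq's table for GRCm38.p6 (35435 of 35745 rows) and GENCODE M21 (193 rows), which also gave positions. The 117 rows without a gene (0.370% to 1.38% of counts) were left out. The row with the highest total was kept per gene, with 12151975 to 15587283 counts per library.

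Genotype was tested by the quasi-likelihood F-test of edgeR 4.0.16 (R 4.3.3) after TMM scaling and filterByExpr, with Benjamini-Hochberg adjustment over 12023 genes. A gene was called at an adjusted p under 0.05. Values are mean ± SD, and the standard error was the fold change divided by the root of F. The scripts were tested on simulated data. DESeq2 1.42.0, limma-voom 3.58.1, other scalings and filters, averaged rows, a replicate block and the removal of each library were alternatives. Members, lists and rules were chosen with earlier results of these data known. All members are named, and from each list the genes past a log2 fold change of 0.58, those with the 3 smallest adjusted p-values, those in counts of 5 or fewer, and *Hmox1*, *Slc7a11*, *Bach1*, *Mafg*, *G6pdx* and *Txnip*. *Cul3*, *Rbx1*, *Cybb*, *Cyba* and the genes named only for lost calls were named after their values were seen. A gene that this rule would name is not reported here.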

Additional observations from a re-analysis of the deposited data

How the results depend on the processing

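Of the 10 NRF2 genes, 8 were called higher and 0 lower by edgeR, DESeq2 and limma-voom, under every scaling and filter, with averaged rows, with a replicate block and without each library in turn. The limit of 0.58 left 4 of these, 5 higher and 2 lower among the other pathway genes, and 358 higher and 309 lower among all genes. Passing this limit rested on single libraries for *Srxn1* (0.55 without Ctrl replicate 2), *Msra* (0.52 without Ctrl replicate 3, 0.55 without AclyM-KO replicate 3, and 0.5795 with library totals alone) and *Osgin1* (-0.52 without Ctrl replicate 3 and -0.54 without AclyM-KO replicate 2), and *Slc3a2*, which did not pass it, did so without Ctrl replicate 2 (0.59) or AclyM-KO replicate 3 (0.59). The weakest of the 8 calls was *Gsr*, with an adjusted p of at most 0.0306. The log2 fold change of *Nfe2l2* ranged from -0.0563 to 0.0073 and that of *Keap1* from -0.0654 to 0.0364 when a library was left out, that of *Keap1* was 0.0018 with upper quartile scaling, and neither was called in any alternative. That of *Slc7a11* ranged from -0.0252 to 0.26 without single libraries. No scaling moved the median of all genes beyond -0.0177.

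The count of other pathway genes called lower was 10, but 6 with DESeq2 and 5 to 9 without single libraries, 6 without Ctrl replicate 1 and 5 without AclyM-KO replicate 1. The count called higher, 39, was 29 to 37 without single libraries and 32 with DESeq2. Over all genes, leaving out a library gave 1002 to 1512 called higher and 972 to 1548 called lower, the lowest count without AclyM-KO replicate 2. The cause was not tested. Replicate numbers did not pair the samples (correlations of deviations between same-numbered libraries were -0.065, 0.05 and -0.031). With a replicate block 8 of the 10 genes were called higher, 35 other pathway genes higher and 8 lower, and 1315 and 1329 of all genes higher and lower. Counts of 16 to 50 limit *Nqo1* most, and intervals cover the spread between 3 libraries a group only.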
